A study of Mus musculus with 6 samples.

Results

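The genes described here are a module of 35 genes for ribosome biogenesis and the nucleolus, many of them known targets of the transcription factor MYC. The members were chosen by name, with earlier results of these data known. Each was found as a single row among the 23473 RefSeq gene rows of the expression table. The data are bulk RNA-seq of tumor endothelial cells (TECs) from Lewis lung carcinoma (LLC) tumors, a mouse lung cancer line inoculated under the skin. NICeCA mice carry a tamoxifen-inducible Cre driven by the endothelial Cdh5 promoter (Cdh5-Cre ERT2) and a Rosa26 allele in which a floxed stop precedes the Notch1 intracellular domain, so that after tamoxifen Notch signaling is switched on in endothelial cells without a ligand. The 3 control (Ctrl) mice are labelled wild type, and whether they carried Cre or received tamoxifen cannot be read from the sources used here. All 6 mice were C57BL/6 with a labelled age of 8 weeks, and each library came from its own mouse. The cells were captured from digested tumors with beads coated with antibody to CD31. The comparison asks how Notch activation in the endothelium relates to the level of the ribosome-making machinery in the captured cells.

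Ribosomes are built in the nucleolus, where RNA polymerase I transcribes the ribosomal DNA into a long precursor. Small nucleolar ribonucleoproteins (snoRNPs) modify this precursor, and large sets of processing factors cut and fold it into the small and large subunits. MYC is known to promote transcription of many of these factors together with polymerase I activity, and growing endothelial cells, like other growing cells, need the products to enlarge and divide.

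Levels are given as RPKM (reads scaled to the length of the gene model and to the total of its library). Length is divided out as that of the gene model, so levels of different genes compare only as far as the model matches the expressed RNA. Reads recovered from the RPKM values numbered 29818454 to 30769916 on RefSeq rows in the Ctrl libraries and 27793301 to 29194187 in the NICeCA libraries. Every member had at least 221 recovered reads in every library. Groups were compared with limma on log2(RPKM + 1) over the 12320 RefSeq rows whose mean reached 1 RPKM, and a gene is called at an adjusted p under 0.05 (Benjamini-Hochberg, two-sided). All 35 members passed that filter. Fold changes are differences on the log2(RPKM + 1) scale, NICeCA minus Ctrl, a scale on which changes of genes with low levels look smaller than they are. An exact permutation test of a single gene with 3 mice against 3 cannot give a p below 0.1.

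The captured fractions were not made of endothelial cells alone, and their make-up differed between libraries. The summed level of the 15 endothelial markers was 724, 298 and 398 RPKM in Ctrl replicates 1 to 3 and 670, 832 and 787 RPKM in NICeCA replicates 1 to 3. Ctrl replicate 1 thus lay among the NICeCA libraries, whereas Ctrl replicates 2 and 3 lay below all others. All 15 markers had positive log2 fold changes, with a median of 0.67, and 3 were called higher, among them Vwf, the gene for von Willebrand factor (log2 fold change 1.15, standard error [SE] 0.26, limma adjusted p = 0.036), while Cd93 was the most abundant. Without Ctrl replicate 1 the median was 1.05 and 11 were called, and without Ctrl replicate 2 the median was 0.40 and 1 was called, as was 1 without Ctrl replicate 3. Without NICeCA replicate 1, 2 or 3, with quantile normalization or with no filter, 0 were called by limma, and 6, 4, 5, 4 and 5 were higher at an unadjusted p under 0.05. With the replicate number as a block 0 were called by limma as well, with 6 higher at that p. The 10 macrophage markers summed to 9337, 6658 and 6386 RPKM in Ctrl and 8057, 7360 and 4309 RPKM in NICeCA libraries. Lyz2, the lysozyme gene of myeloid cells, led them with 2611 to 5555 RPKM across the 6 libraries, far above any endothelial marker, which goes against the high endothelial purity stated in the labels. Of these 10 markers, 7 had negative log2 fold changes, but 6 with quantile normalization, 5 without Ctrl replicate 1 and 4 without NICeCA replicate 3. No marker was called lower by limma or voom, with 0 lower at an unadjusted p under 0.05, though 3 were with quantile normalization and 2 without NICeCA replicate 1, and 2 markers were called higher, Fcgr1 the more so (log2 fold change 1.52, SE 0.16, limma adjusted p = 0.0092).

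Markers of other cell types were also present. Neutrophil markers summed to 119, 204 and 273 RPKM in Ctrl and to 633, 896 and 1712 RPKM in NICeCA libraries, with S100a9 the most abundant. Of the 8 neutrophil markers tested, 7 were called higher, the collagenase gene Mmp8 the most (log2 fold change 3.92, SE 0.32, limma adjusted p = 0.0069), while Ltf, Camp and Elane had means under 1 RPKM. Without Ctrl replicate 2 or NICeCA replicate 3, 4 were called, and without NICeCA replicate 1 or NICeCA replicate 2, 2 were. Fibroblast markers, led by Col3a1, summed to 418, 694 and 505 RPKM in Ctrl and 344, 319 and 498 RPKM in NICeCA libraries, and of 8 tested 4 were called lower and 1, Pdpn, higher (log2 fold change 1.78, SE 0.23, limma adjusted p = 0.011). Without Ctrl replicate 3, 1 was called lower, and without Ctrl replicate 2, NICeCA replicate 1 or NICeCA replicate 2, 0 were by limma, with 4 lower at an unadjusted p under 0.05 in each. With no filter 0 were called lower by limma, with 6 lower at that p. The count was 1 with the length trend removed or the replicate number as a block, 2 with quantile normalization and 5 without NICeCA replicate 3. Pericyte markers summed to 36.5, 27.3 and 43.8 RPKM against 70.6, 59.5 and 108 RPKM, with Rgs5 both the most abundant and the called gene with the largest change (log2 fold change 1.40, SE 0.33, limma adjusted p = 0.038). Platelet and erythroid markers summed to 138, 130 and 189 RPKM against 1135, 1048 and 916 RPKM, almost all of it from Pf4, the platelet factor 4 gene (log2 fold change 2.98, SE 0.21, limma adjusted p = 0.0069). Of the 6 tested, 4 were negative, and Pf4 was the gene called. Lymphocyte markers, led by Nkg7, summed to 37.0 to 65.5 RPKM with 0 of 10 tested called by limma or voom, and 1 at an unadjusted p under 0.05. Epithelial markers, led by Cdh1, summed to 6.77 to 13.0 RPKM, 7 of the 9 had means under 1 RPKM, and Krt18 was called lower (log2 fold change -0.98, SE 0.23, limma adjusted p = 0.038). No marker found in the table was at 0 in all 6 libraries. Apart from a fit with the endothelial marker level as a covariate, given below, the part of these cell types in the results was not tested, and in such bulk samples fewer cells of a type and less RNA per cell cannot be told apart. Notch1, whose intracellular domain the transgene carries, averaged 12.1 ± 3.40 RPKM in Ctrl and 12.8 ± 0.671 RPKM in NICeCA libraries. Of 6 Notch pathway genes tested, the target Hey1 was the gene called, higher in NICeCA libraries (log2 fold change 1.10, SE 0.27, limma adjusted p = 0.041), and Nrarp was the most abundant. Over the alternatives the log2 fold change of Hey1 lay between 0.48 and 1.41. The median of the 6 was 0.59 with 1 negative, and 0.08 with 3 negative with the endothelial covariate.

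Most ribosome biogenesis genes of the module had lower mean levels in the NICeCA than in the Ctrl libraries, but few differences passed the test. Of the 35 members, 28 had a negative and 7 a positive log2 fold change, with a median of -0.33, against a median of -0.05 over all genes tested, where 6811 were negative and 5509 positive. The 2 members called lower were Pprc1 and Rrp12, a share no larger than the 7.68% of all 12320 genes called lower. No member was called higher by limma, against 5.88% of all genes, and 1 member was higher at an unadjusted p under 0.05, where 14.4% of all genes were. The test by voom on recovered reads called the same 2 members lower and 0 higher. At an unadjusted p under 0.05, 14 members were lower, where 21.1% of all genes were. In 13 members all 3 NICeCA libraries lay below all 3 Ctrl libraries, as in 24.4% of all genes tested, and in 2 members, Nhp2 and Nop10, all lay above, as in 16.5%. With trimmed mean scaling (each library scaled by a trimmed mean of its log ratios), 26 members were negative, Npm3 and Wdr74 having turned positive, and with quantile normalization 29 were, Npm1 having turned negative. Over all genes, the same scaling turned a split of 725 higher and 946 lower into 1084 higher and 657 lower, and quantile normalization gave 446 and 325. Of the members, 23 were negative with the endothelial marker level as a covariate, 25 without Ctrl replicate 2 and 31 without Ctrl replicate 1.

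The number of members called depended on single libraries. Without Ctrl replicate 1, 4 members were called lower (Polr1a, Mybbp1a, Utp20 and Pprc1), and 4.34% of all genes were. Without Ctrl replicate 3, Pprc1 was the single member called, with 6.05% of all genes called lower. Without Ctrl replicate 2 no member was called by limma, with 1.1% of all genes called lower, and at an unadjusted p under 0.05, 6 members and 16.6% of all genes were lower. Likewise no member was called without NICeCA replicate 1 (0.113% of all genes called lower) or without NICeCA replicate 2 (0.0081% of all genes). At an unadjusted p under 0.05, 9 members and 14.3% of all genes were lower without NICeCA replicate 1, and 6 members and 12.8% of all genes without NICeCA replicate 2. The median over the members was negative in each of these fits, between -0.48 without Ctrl replicate 1 and -0.21 without Ctrl replicate 2. In the fit that left out Ctrl replicate 2, 12 members had log2 fold changes smaller by over 1.5 times, namely Nolc1 (-0.31), Nop56 (-0.38), Dkc1 (-0.08), Nop14 (-0.17), Rrp9 (-0.16), Heatr1 (0.01), Wdr43 (-0.22), Nop2 (-0.24), Nop16 (-0.06), Rrs1 (-0.29), Gnl3 (-0.13) and Tbrg4 (-0.32), and Npm3, Fbl and Wdr74 turned positive. Without Ctrl replicate 1, 7 were larger by over 1.5 times, among them Dkc1 (-0.48), Wdr43 (-0.50) and Gnl3 (-0.46).

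**Figure D1:**
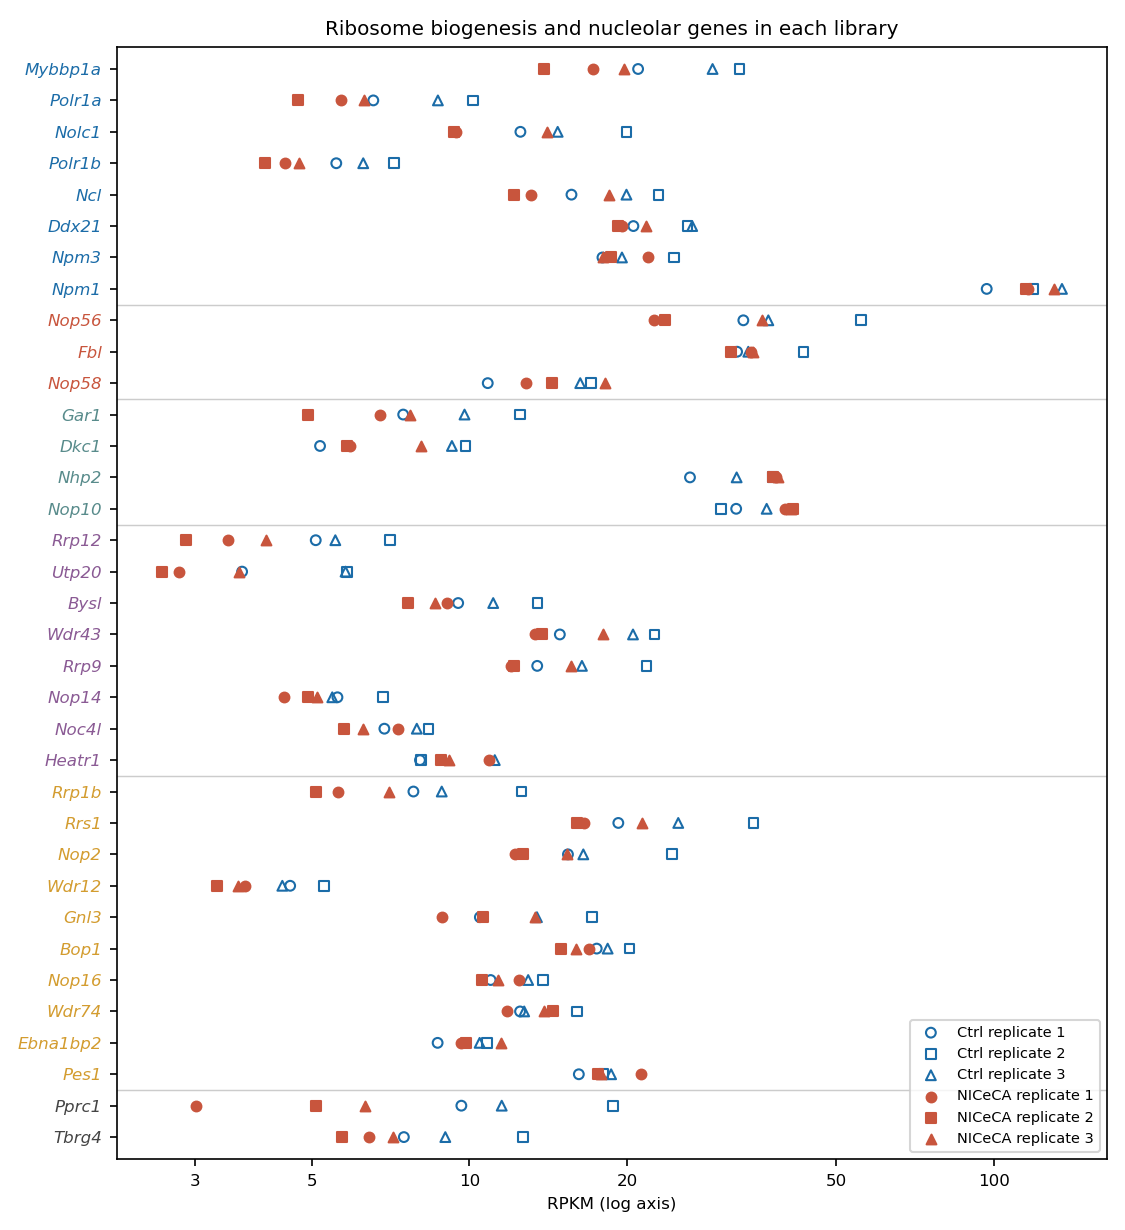
RPKM (log axis) of each of the 35 members in the 6 libraries, with open blue symbols for the 3 Ctrl and filled red symbols for the 3 NICeCA libraries, and gene names coloured and grouped by role from polymerase I and nucleolar chaperones at the top to other MYC-linked genes at the bottom. Ctrl replicate 2 (open square) is the highest of the 6 libraries for 27 members, and Npm1 stands apart from all others at 96.8 to 135 RPKM.

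Of the 8 genes of RNA polymerase I and the nucleolar chaperones, none was called by limma or voom and 4 were lower at an unadjusted p under 0.05, and the groups were apart in 3, Polr1a, Polr1b and Mybbp1a. Polr1a, which encodes the largest subunit of polymerase I, had 6.56, 10.2 and 8.70 RPKM in Ctrl and 5.70, 4.72 and 6.30 RPKM in NICeCA libraries. Its groups did not overlap, though NICeCA replicate 3 came close to Ctrl replicate 1 (log2 fold change -0.52, SE 0.17, limma adjusted p = 0.078). Polr1b, the partner subunit in the catalytic core, had 5.57, 7.19 and 6.27 RPKM in Ctrl and 4.44, 4.07 and 4.72 RPKM in NICeCA libraries, again with no overlap (log2 fold change -0.44, SE 0.13, limma adjusted p = 0.057). Mybbp1a encodes a nucleolar protein that binds MYB and takes part in the control of polymerase I. It had 21.0, 32.7 and 29.1 RPKM in Ctrl and 17.2, 13.9 and 19.7 RPKM in NICeCA libraries, which did not overlap by a narrow margin, and its log2 fold change of -0.66 (SE 0.19, 95% confidence interval -1.11 to -0.21) was the second most negative of the module and missed the threshold (limma adjusted p = 0.058).

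In each of the nucleolar chaperones the groups overlapped. Nolc1, a chaperone of snoRNPs, averaged 15.7 ± 3.80 RPKM in Ctrl and 10.9 ± 2.69 RPKM in NICeCA libraries (SD, n = 3 each), with NICeCA replicate 3 inside the Ctrl range. Ncl (nucleolin), a major protein of the nucleolus, averaged 19.5 ± 3.66 and 14.6 ± 3.40 RPKM, and Ddx21, an RNA helicase, 24.4 ± 3.35 and 20.1 ± 1.34 RPKM, both with overlap. Npm1 (nucleophosmin), a histone and ribosome chaperone, was by far the most abundant member, at 96.8, 119 and 135 RPKM in Ctrl and 116, 115 and 130 RPKM in NICeCA libraries. The NICeCA values all lay within the Ctrl range (log2 fold change 0.05, 95% confidence interval -0.30 to 0.41, limma adjusted p = 0.83), and this estimate turned to -0.32 with quantile normalization. Its relative Npm3 had a log2 fold change of -0.07 with overlapping groups, and 0.01 with trimmed mean scaling. Npm1 alone made up a large part of the summed level of the module, which was 552, 767 and 681 RPKM in Ctrl and 560, 541 and 632 RPKM in NICeCA libraries. Without Npm1 the sums were 455, 648 and 546 RPKM against 444, 426 and 502 RPKM.

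The snoRNP proteins had log2 fold changes of both signs, and 0 of the 7 were called by limma or voom, with 2 lower and 1 higher at an unadjusted p under 0.05. Of the proteins of the box C/D particles, in which a small nucleolar RNA guides methylation of ribosomal RNA, the methyltransferase gene Fbl (fibrillarin) had 36.6 ± 5.90 RPKM in Ctrl and 33.5 ± 1.78 RPKM in NICeCA libraries. Nop56 had 33.3, 55.8 and 37.1 RPKM in Ctrl and 22.5, 23.6 and 36.1 RPKM in NICeCA libraries, where NICeCA replicate 3 reached the Ctrl range (log2 fold change -0.60, SE 0.24, limma adjusted p = 0.12). Its partner Nop58, of the same core complex, had a log2 fold change of 0.04 (95% confidence interval -0.41 to 0.50). The difference between these partners was not tested.

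The box H/ACA proteins, which carry out pseudouridylation and also belong to the telomerase particle, lay on both sides of 0. Gar1 averaged 9.92 ± 2.51 RPKM in Ctrl and 6.46 ± 1.42 RPKM in NICeCA libraries (log2 fold change -0.54, limma adjusted p = 0.11), and Dkc1, the pseudouridine synthase gene, 8.09 ± 2.53 and 6.61 ± 1.27 RPKM, with overlap in both. Nhp2, in contrast, had 26.3, 37.8 and 32.3 RPKM in Ctrl and 38.5, 37.8 and 38.8 RPKM in NICeCA libraries. The 3 NICeCA values were almost equal and lay at or just above the highest Ctrl value (log2 fold change 0.26, SE 0.15, limma adjusted p = 0.24). Nop10 had 32.2, 30.2 and 36.9 RPKM in Ctrl and 40.0, 41.3 and 41.0 RPKM in NICeCA libraries, with the groups apart. It had the largest positive log2 fold change of the module, 0.30 (95% confidence interval 0.02 to 0.58), and was not called (limma adjusted p = 0.12). Both Nhp2 and Nop10 were positive with each other scaling and with any library left out, but smaller with quantile normalization (0.08 and 0.12) and with the length trend removed (0.12 and 0.10). Nhp2 was at 0.13 without Ctrl replicate 1 and at 0.53 with the endothelial covariate. They were, with Npm1, the most abundant members and, with Npm3, the shortest, at 1004 and 695 bases.

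Genes for processing of the small subunit held 1 of the called members. Rrp12, a factor for the maturation and export of the small subunit precursor, had 5.09, 7.06 and 5.55 RPKM in Ctrl and 3.46, 2.88 and 4.09 RPKM in NICeCA libraries. All NICeCA values lay below all Ctrl values, and Rrp12 fell by 0.62 on the log2 scale (SE 0.16, 95% confidence interval -0.99 to -0.26, limma adjusted p = 0.043). This call sat close to the threshold and was lost without Ctrl replicate 1 (limma adjusted p = 0.051), Ctrl replicate 2 (0.097), Ctrl replicate 3 (0.059), NICeCA replicate 1 (0.14) or NICeCA replicate 2 (0.17), with log2 fold changes from -0.72 to -0.51 when any 1 library was left out. Quantile normalization (0.076), no filter (0.089) and the replicate number as a block (0.086) ended the call as well. Utp20, a large scaffold protein of the small subunit processome, had 3.69, 5.84 and 5.80 RPKM in Ctrl and 2.79, 2.59 and 3.64 RPKM in NICeCA libraries. The groups were apart by the gap between NICeCA replicate 3 and Ctrl replicate 1, which was small (log2 fold change -0.60, SE 0.19, limma adjusted p = 0.066).

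The other processing factors of the small subunit differed less. Bysl (bystin), a factor of small subunit maturation, averaged 11.4 ± 1.99 RPKM in Ctrl and 8.42 ± 0.727 RPKM in NICeCA libraries, and Nop14 5.98 ± 0.759 and 4.83 ± 0.357 RPKM, both without overlap and neither called. Noc4l, whose product forms a complex with that of Nop14, averaged 7.72 ± 0.756 and 6.44 ± 0.782 RPKM, with NICeCA replicate 1 inside the Ctrl range. The U3 snoRNP gene Rrp9 (17.2 ± 4.20 and 13.3 ± 2.04 RPKM) and Wdr43 (19.3 ± 3.97 and 15.0 ± 2.55 RPKM) had log2 fold changes of -0.33 and -0.34, with overlapping groups. Heatr1, another scaffold of the processome and as long a gene model as any but Ncl and Utp20, was the exception in this class. It averaged 9.10 ± 1.80 RPKM in Ctrl and 9.61 ± 1.11 RPKM in NICeCA libraries (log2 fold change 0.08, 95% confidence interval -0.28 to 0.44).

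In the assembly of the large subunit, 8 of 10 members were negative and none was called by limma, with 3 lower at an unadjusted p under 0.05. Rrp1b had 7.82, 12.6 and 8.85 RPKM in Ctrl and 5.62, 5.10 and 7.03 RPKM in NICeCA libraries, with no overlap (log2 fold change -0.62, SE 0.19, limma adjusted p = 0.062). Rrs1, which helps to place the 5S ribosomal particle, averaged 26.3 ± 7.86 and 17.9 ± 2.91 RPKM, and Nop2, a methyltransferase of the large subunit RNA, 18.7 ± 4.87 and 13.4 ± 1.71 RPKM. In Nop2 the groups met without overlap, at 15.4 RPKM in both Ctrl replicate 1 and NICeCA replicate 3. Pes1, Bop1 and Wdr12 encode the subunits of the PeBoW complex, which acts in maturation of the large subunit. Wdr12 averaged 4.74 ± 0.468 RPKM in Ctrl and 3.55 ± 0.218 RPKM in NICeCA libraries, and Bop1 18.7 ± 1.39 and 15.9 ± 0.969 RPKM, with the groups apart in both. Pes1 had 16.2, 18.0 and 18.6 RPKM in Ctrl and 21.2, 17.6 and 17.8 RPKM in NICeCA libraries. Its groups overlapped, and its log2 fold change of 0.09 (95% confidence interval -0.20 to 0.39, limma adjusted p = 0.62) was the third most positive of the module, while Bop1 (-0.22) and Wdr12 (-0.33) were negative. Gnl3 (nucleostemin) had a log2 fold change of -0.29, Nop16 of -0.12, Wdr74 of -0.03 and Ebna1bp2 of 0.05, all with overlapping groups, and Wdr74 was positive (0.04) with trimmed mean scaling.

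The largest difference belonged to a member whose known role is not in the nucleolus. Pprc1 encodes a coactivator of the PGC-1 family that serves nuclear genes for mitochondrial function and is induced when cells enter growth. It had 9.65, 18.8 and 11.5 RPKM in Ctrl and 3.004, 5.10 and 6.33 RPKM in NICeCA libraries. Every NICeCA library was well below the lowest Ctrl library, and Pprc1 fell by 1.29 on the log2 scale (SE 0.28, 95% confidence interval -1.95 to -0.64, limma adjusted p = 0.034). With 1 library left out its log2 fold change stayed between -1.48 and -1.03, but the call was lost without Ctrl replicate 2 (limma adjusted p = 0.067), NICeCA replicate 1 (0.12) or NICeCA replicate 2 (0.12), and also with quantile normalization (0.052) or no filter (0.070). Tbrg4, a regulator of mitochondrial RNA, averaged 9.71 ± 2.65 RPKM in Ctrl and 6.43 ± 0.729 RPKM in NICeCA libraries without overlap (log2 fold change -0.50, SE 0.18, limma adjusted p = 0.098).

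**Figure D2:**
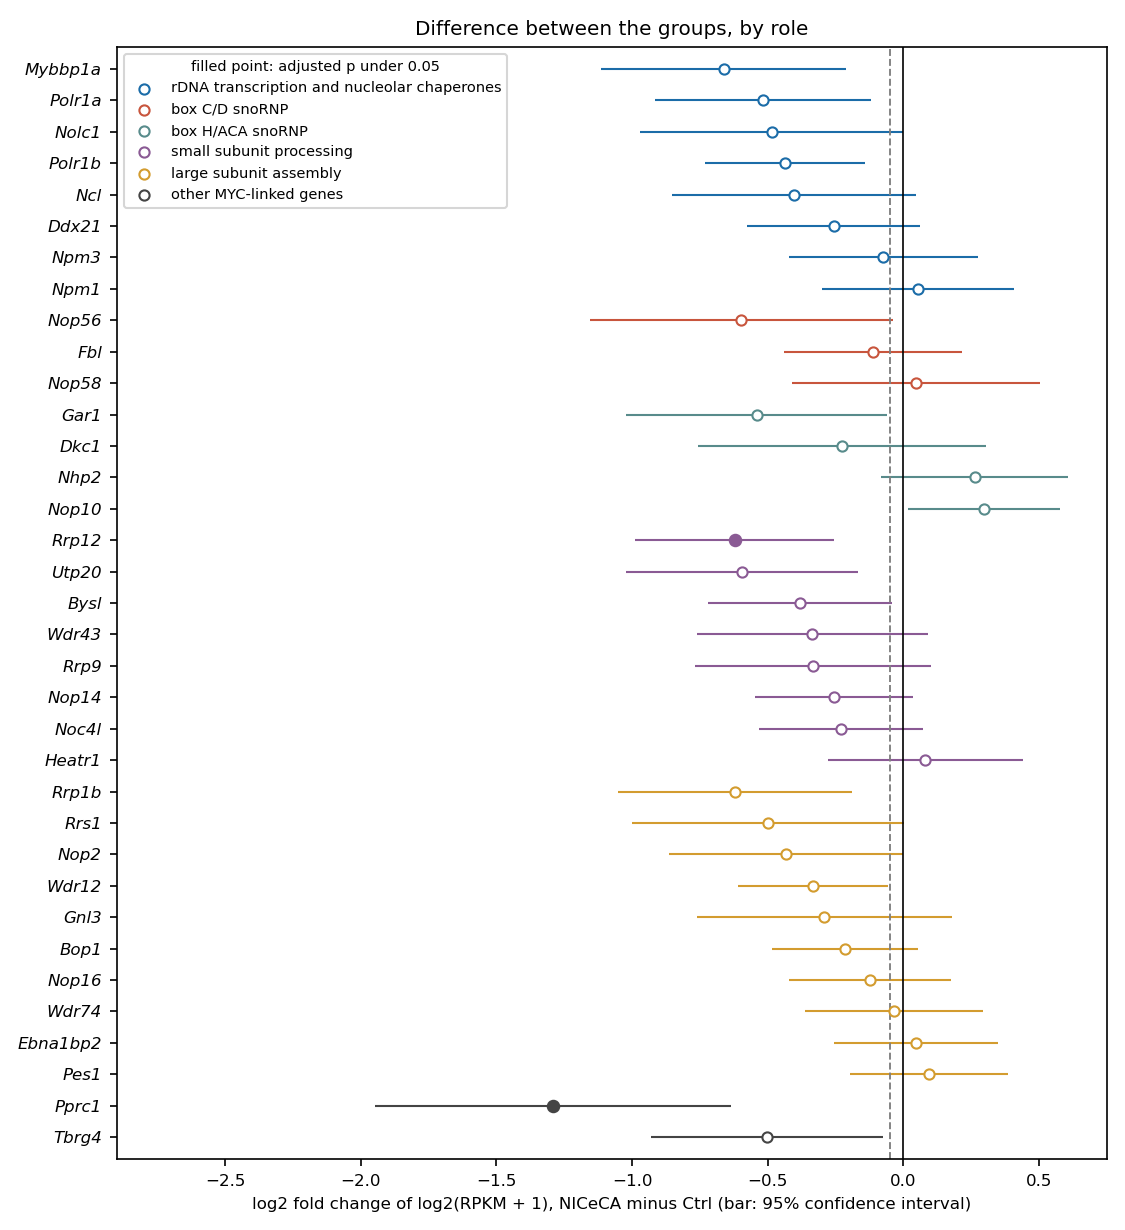
Log2 fold change of log2(RPKM + 1), NICeCA minus Ctrl, of each member with its 95% confidence interval from limma (n = 3 mice per group), coloured by role; filled points are called at an adjusted p under 0.05, the solid line marks 0 and the dashed line the median of all genes tested (-0.05). Pprc1 (-1.29) and Rrp12 (-0.62) are the called members, and 28 of 35 points lie left of 0. This count becomes 26 with trimmed mean scaling and 29 with quantile normalization. It is 23 with the endothelial covariate, 25 without Ctrl replicate 2 and 31 without Ctrl replicate 1.

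The members largely shared their order of libraries. Ctrl replicate 2 was the highest of the 6 libraries for 27 members, and Ctrl replicate 1 was the lowest Ctrl library for 32. Among the NICeCA libraries, replicate 3 was the highest for 25 members, and replicate 2 was the lowest of all 6 for 18. The same counts were not made over all genes, so whether this order is particular to the members was not tested. The mean of log2(RPKM + 1) over the 35 members was 3.72, 4.19 and 3.98 in Ctrl replicates 1 to 3 and 3.62, 3.56 and 3.81 in NICeCA replicates 1 to 3. NICeCA replicate 3 therefore lay above Ctrl replicate 1 on this scale, and the groups overlapped. Ctrl replicate 1 was also the Ctrl library with the highest endothelial marker sum and Ctrl replicate 2 the one with the lowest, and with the mean log2 level of the endothelial markers as a covariate the median of the members was -0.09, with 0 members called by limma, 1 lower at an unadjusted p under 0.05, and 0 of all 12320 genes called. At that p, 889 of all genes were lower. Since this covariate differs between the groups, its part and that of the genotype cannot be told apart.

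Longer gene models had more negative fold changes, both in the module and at large. Across the 35 members, the log2 fold change and the log2 of length had a correlation of -0.53, and across all genes tested -0.21, values given as a description since genes of the same libraries are not independent. The 17 members shorter than 2803 bases had a median of -0.22 in log2 fold change, and the 18 of 2803 bases or more a median of -0.42. Split at the same length, all genes tested had medians of 0.05 and -0.15. Both called members, Pprc1 (5244 bases) and Rrp12 (4320 bases), were among the longer ones. After the trend of each library on length was removed, the median over all 35 members was -0.24 and none was called by limma, with Pprc1 at -1.11 (limma adjusted p = 0.061) and Rrp12 at -0.48 (limma adjusted p = 0.091), and 9 were lower at an unadjusted p under 0.05. Of all 12320 genes, 1897 were lower at that p in this fit. The medians of the shorter and the longer members were then -0.23 and -0.27. The study states that the RNA integrity number of each sample lay above a given lower bound. RNA integrity of single libraries was not analysed here.

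**Figure D3:**
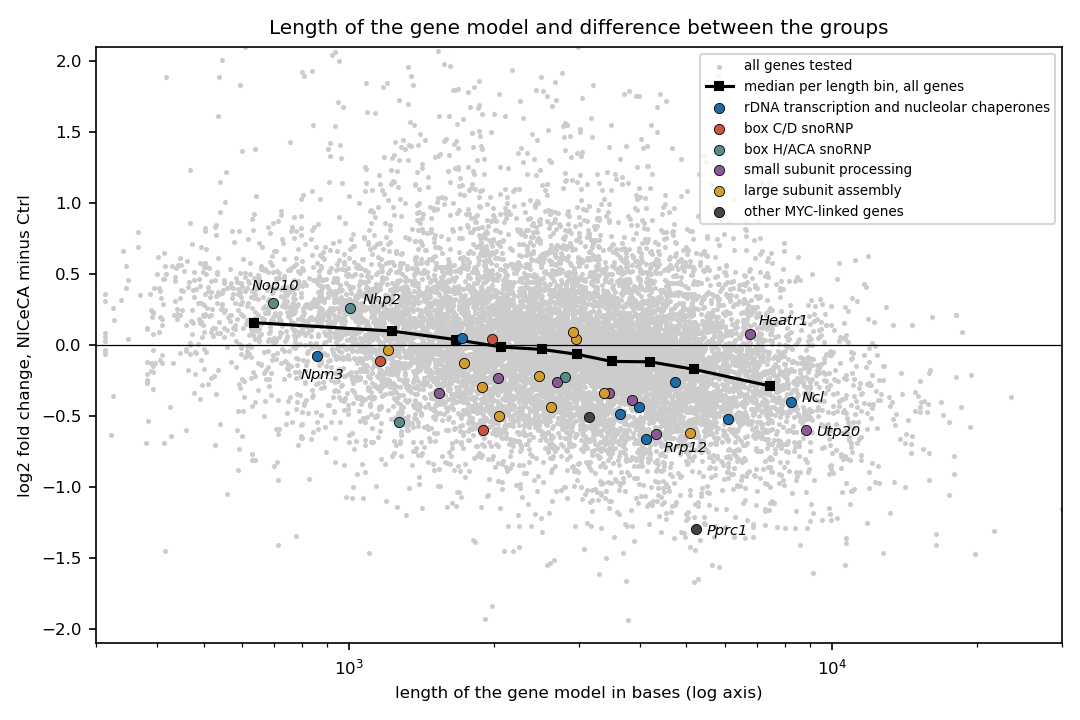
Log2 fold change (NICeCA minus Ctrl) against the length of the gene model in bases (log axis), with the members coloured by role over all genes tested in grey and the median of all genes in 10 bins of length as black squares; 337 genes and none of the members lie outside the axes. The median of all genes passes from 0.16 in the bin of the shortest genes to -0.29 in that of the longest, and Nop10 and Nhp2 sit at the short end while Utp20 and Ncl sit at the long end.

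Over the other ribosome biogenesis genes the median lay closer to 0. Of 131 further factors listed from the same pathway, 130 were tested, with 7 called lower and 1 called higher, a median log2 fold change of -0.10, and 85 negative against 45 positive values, where 7.68% of all genes were called lower and 5.88% higher. At an unadjusted p under 0.05, 32 were lower and 3 higher, where 21.1% and 14.4% of all genes were. With trimmed mean scaling, 70 were negative and the median was -0.03, and the median was -0.18 without Ctrl replicate 1 and -0.06 without Ctrl replicate 2. With quantile normalization or the length trend removed, 1 was called lower and 0 higher by limma, with 21 lower in each, and 7 and 5 higher, at an unadjusted p under 0.05. Of all 12320 genes, 2112 and 1897 were lower, and 1791 and 2065 higher, at that p in these fits. With no filter 0 were called by limma (30 lower and 3 higher at an unadjusted p under 0.05), and with the endothelial covariate 0 were (2 lower and 5 higher), with 60 negative and a median of 0.02. At that p, 3105 of all 22072 rows were lower and 2458 higher with no filter, and 889 of 12320 lower and 1125 higher with the covariate. Mdn1, the giant ATPase gene that strips factors from the large subunit precursor, had 5.23, 7.55 and 7.12 RPKM in Ctrl and 2.30, 2.82 and 4.18 RPKM in NICeCA libraries and fell by 0.91 on the log2 scale (SE 0.20, limma adjusted p = 0.034). Pdcd11, needed for cleavages in both branches of the pathway, had 9.62, 13.4 and 10.1 RPKM in Ctrl and 5.32, 5.25 and 7.31 RPKM in NICeCA libraries and fell by 0.79 (SE 0.17, limma adjusted p = 0.033). Dhx37, a helicase that acts on the U3 snoRNA in the small subunit processome, fell from 4.06 ± 0.775 to 2.17 ± 0.473 RPKM (log2 fold change -0.67, SE 0.17, limma adjusted p = 0.041). The groups did not overlap in any of them. Fcf1, a nuclease of the processome, was the gene called higher, at 15.3, 13.2 and 15.5 RPKM in Ctrl and 21.0, 21.5 and 21.3 RPKM in NICeCA libraries (log2 fold change 0.51, SE 0.12, limma adjusted p = 0.035). The most abundant factor of this list, Gltscr2, averaged 102 ± 6.92 and 104 ± 3.44 RPKM. By class, the median was -0.16 over 14 polymerase I genes, -0.04 over 46 genes of the small subunit processome, -0.19 over 47 genes of large subunit assembly, -0.01 over 10 snoRNP assembly genes and -0.13 over 13 exosome genes. Without Ctrl replicate 3, 2 of this list were called lower and 3 higher. Without Ctrl replicate 2, NICeCA replicate 1 or NICeCA replicate 2, 0 genes of this list were called by limma. Of the 130, 17, 15 and 12 were lower at an unadjusted p under 0.05, where 16.6%, 14.3% and 12.8% of all genes were.

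Myc itself was not called. Myc had 31.9, 73.1 and 45.3 RPKM in Ctrl and 17.4, 23.7 and 47.9 RPKM in NICeCA libraries (log2 fold change -0.78, SE 0.40, limma adjusted p = 0.20). The log2 fold change was -0.47 without Ctrl replicate 2, -0.48 without NICeCA replicate 1, -1.18 without NICeCA replicate 3 and -0.34 with the endothelial covariate, with limma adjusted p from 0.059 to 0.77 over the alternatives. Its highest library, Ctrl replicate 2, and the highest NICeCA library, replicate 3, were also those with the highest mean over the members in each group, and Ctrl replicate 1 was the lowest Ctrl library in both, but among the NICeCA libraries Myc was lowest in replicate 1 and the members in replicate 2. Of the 11 MYC network genes tested, 2 were called higher, and both encode dimer partners of MAX that repress MYC targets. Mxd1, the most abundant of the network, had 19.1, 14.4 and 35.8 RPKM in Ctrl and 57.4, 56.8 and 59.7 RPKM in NICeCA libraries (log2 fold change 1.39, SE 0.28, limma adjusted p = 0.030), and Mxi1 had 10.9, 11.0 and 15.3 RPKM against 31.8, 23.6 and 29.6 RPKM (log2 fold change 1.13, SE 0.17, limma adjusted p = 0.017). In both genes all NICeCA libraries lay above all Ctrl libraries. Over the 11 genes tested the median log2 fold change was 0.02, with 5 negative and 6 positive. Mnt, a further repressor of this kind, was the gene called lower (log2 fold change -0.54, SE 0.13, limma adjusted p = 0.041), and Mycn, with a mean under 1 RPKM, was not tested. Among 26 other known MYC targets with roles outside the nucleolus, 16 were negative, 13 with trimmed mean scaling, 20 with quantile normalization and 8 with the endothelial covariate (medians of -0.10, -0.03, -0.15 and 0.16). With 1 library left out the median lay between -0.20 (without Ctrl replicate 1) and -0.02 (without Ctrl replicate 2, where 13 were negative). Of these 26, 1 was called in each direction, Cad, the gene for the first enzymes of pyrimidine synthesis, lower (log2 fold change -0.94, SE 0.20, limma adjusted p = 0.033) and Ldha, the lactate dehydrogenase gene and the most abundant of the list, higher (log2 fold change 0.99, SE 0.18, limma adjusted p = 0.023).

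Ribosomal proteins are the parts that this machinery joins to ribosomal RNA. Of 82 cytosolic ribosomal protein genes, 75 had positive log2 fold changes with a median of 0.22, but with quantile normalization 59 were negative with a median of -0.05. In 45 of the 82 all 3 NICeCA libraries lay above all 3 Ctrl libraries, and in 0 all lay below, against 16.5% and 24.4% of all genes tested. None was called by limma, with 20 higher and 0 lower at an unadjusted p under 0.05, where 14.4% of all genes were higher. Quantile normalization turned this to 1 higher and 14 lower and removal of the length trend to 4 higher and 1 lower. At this p, 8 were higher without Ctrl replicate 1, 9 without Ctrl replicate 2, 15 without Ctrl replicate 3, 5 without NICeCA replicate 1, 2 without NICeCA replicate 2 and 23 without NICeCA replicate 3, and 43 were with trimmed mean scaling and 44 with voom on recovered reads. Of all 12320 genes, 2461 were higher at this p with trimmed mean scaling and 2394 with voom. Trimmed mean scaling called 6 and voom 7 higher, and limma without the trend and the fit without NICeCA replicate 3 called 1 each. The median was 0.19 without Ctrl replicate 1, 0.26 without Ctrl replicate 2, and the median was 0.03 after removal of the trend on length. Rpl41, the most abundant of them, had 1910, 2161 and 1754 RPKM in Ctrl and 2837, 2478 and 2308 RPKM in NICeCA libraries, with the groups apart (log2 fold change 0.39, SE 0.16, limma adjusted p = 0.12). Rn45s, the row of the ribosomal RNA precursor, had 5049, 8473 and 2483 RPKM in Ctrl and 1119, 1435 and 2580 RPKM in NICeCA libraries. NICeCA replicate 3 lay just above Ctrl replicate 3, and the difference was not called (log2 fold change -1.56, SE 0.46, limma adjusted p = 0.059). The libraries were made after depletion of ribosomal RNA, so this row holds what the depletion left as well as what the cells made, and these cannot be told apart.

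In proliferation genes, too, Ctrl replicate 2 and NICeCA replicate 3 were the highest libraries of their groups. The 20 genes listed summed to 287, 432 and 350 RPKM in Ctrl and 327, 295 and 335 RPKM in NICeCA libraries, and Ctrl replicate 1 had the lowest sum of all. By the mean of log2(RPKM + 1), NICeCA replicate 2 was the lowest (3.32, against 3.52 in Ctrl replicate 1). Of the 20, 19 were negative, at a median log2 fold change of -0.29, and 18 with quantile normalization. The median was -0.48 without Ctrl replicate 1, -0.14 without Ctrl replicate 2 and -0.17 without NICeCA replicate 2, and with the endothelial covariate 5 were negative and the median was 0.06. Mki67, the gene for the proliferation marker Ki-67, was the gene called, at 22.2, 36.8 and 24.8 RPKM in Ctrl and 12.0, 12.9 and 18.2 RPKM in NICeCA libraries (log2 fold change -0.90, SE 0.22, limma adjusted p = 0.041). Pcna, the most abundant of the list, was the exception, at 80.9, 86.0 and 86.7 RPKM in Ctrl and 121, 125 and 103 RPKM in NICeCA libraries (log2 fold change 0.45, SE 0.13, limma adjusted p = 0.052). Pcna was called higher with trimmed mean scaling (limma adjusted p = 0.035) and by voom (0.036), while its log2 fold change was 0.10 with quantile normalization (0.56). The part of proliferation in the levels of the members was not tested. Of the called genes named here that are not members, Mmp8 and Pf4 were called with any single library left out, Fcgr1 and Pdpn lost the call without NICeCA replicate 2, and all others without either NICeCA replicate 1 or NICeCA replicate 2. Among these, Vwf, Cd93, S100a9, Rgs5, Fcf1, Mnt and Hey1 also lost it without NICeCA replicate 3, and all but Vwf, Rgs5 and Mxi1 without Ctrl replicate 2. The call was lost without Ctrl replicate 1 for S100a9, Col3a1, Rgs5, Krt18, Fcf1 and Mxd1, and without Ctrl replicate 3 for Cd93, Col3a1, Krt18, Mdn1, Dhx37, Mnt, Cad, Mki67 and Hey1. With the endothelial covariate none of them was called by limma, and with no filter Fcgr1, Mmp8, Pdpn, Pf4 and Mxi1 were. With quantile normalization these 5 and Col3a1, Mdn1 and Cad were called, and all others lost the call. Removal of the length trend ended the call of S100a9, Col3a1, Rgs5, Hey1, Mdn1, Pdcd11, Dhx37, Fcf1, Mnt, Cad and Mki67, and that of Col3a1 was also lost with trimmed mean scaling and voom.

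Since many members are known MYC targets, their promoters were searched for CACGTG, the E-box bound by MYC with MAX, which reads the same on both strands. The RefSeq promoter table (GRCm38.p6, from 250 bases before to 50 bases after the start) held windows for 30 of the 35 members; Npm1, Fbl, Rrp12, Bop1 and Rrs1 had no entry. The motif lay in 5 of the 33 windows of members (15.2%), against 7.15% of all 32851 windows and 9.89% of the 11370 windows of genes tested. The members with it were Mybbp1a, Utp20, Nop2, Wdr43 and Pes1, with log2 fold changes from -0.66 to 0.09 and a median of -0.43, where the 25 members without it had a median of -0.29. The called member Pprc1 had no CACGTG in its window. The variant CACGCG, searched as CACGCG or CGCGTG to cover both strands, lay in 27.3% of the windows of members, 9.27% of all windows and 16.8% of those of genes tested. The stretches around CACGTG in the 4 of these members with the most negative log2 fold changes are shown to place the motif, with CACGTG in capitals and up to 12 bases on each side within the window, on the strand of the gene.
Mybbp1a (chr11:72441355-72441376, plus strand, motif from base 41 after the start in the promoter table and 11 bases before the gene model used for the levels): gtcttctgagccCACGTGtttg
Utp20 (chr10:88826765-88826789, minus strand, motif from base 38 of the transcript): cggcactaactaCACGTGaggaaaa
Nop2 (chr6:125131811-125131840, plus strand, motif 60 bases before the start): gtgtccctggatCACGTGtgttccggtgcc
Wdr43 (chr17:71616220-71616249, plus strand, motif from base 18 of the transcript): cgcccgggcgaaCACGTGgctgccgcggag
These letters are a match in sequence, and binding was not measured.

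The members are spread over 16 chromosomes, but Pprc1 has a neighbour within the module. On chromosome 19 (GRCm38 positions of the table), Pprc1 (46056539 to 46072909) and Nolc1 (46075863 to 46085531) lie on the plus strand with 2953 bases between them, and Npm3 (45747734 to 45749563) lies 306975 bases before Pprc1. Their log2 fold changes of -1.29, -0.48 and -0.07 were of different size, a difference that was not tested. In 6 members, Ncl, Nop56, Nop58, Wdr43, Gnl3 and Tbrg4, a total of 10 rows for small nucleolar RNAs lie inside the gene on the same strand. The most abundant of these, Snord57 inside Nop56, had 106, 130 and 76.1 RPKM in Ctrl and 28.7, 39.6 and 79.3 RPKM in NICeCA libraries, with NICeCA replicate 3 inside the Ctrl range as for its host (log2 fold change -1.16, limma adjusted p = 0.065). Such short rows can also collect reads of the unspliced host RNA. Also, 7 members overlap a gene on the opposite strand (Nop56, Dkc1, Nhp2, Bysl, Bop1, Wdr12 and Gnl3), and Ebna1bp2 overlaps a row on its own strand. The sources used here do not state a strand setting for the counting, and reads in these overlaps cannot be assigned with certainty; Pprc1 and Rrp12 have no such overlap with another RefSeq row.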

How the data were processed

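RNA-seq was done on 3 Ctrl and 3 NICeCA libraries after depletion of ribosomal RNA. The authors deposited RPKM values for 56826 rows, of which the 23473 RefSeq rows were used and the 33353 FANTOM3 rows were left out. The submitters' processing notes name TopHat2 and mm9, whereas 99.3% of RefSeq rows with a matched symbol overlap that gene in GRCm38, so positions are GRCm38. The sources used here do not name the counting tool. RPKM times length was a whole multiple of a step (within 0.05) for 100% of values under 1000 reads, which gave the recovered reads.

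Groups were compared on log2(RPKM + 1) by limma 3.58.1 in R 4.3.3 (eBayes with trend, mean of at least 1 RPKM, no replicate block, Benjamini-Hochberg). The fit was also run on simulated reads with known fold changes. These held no length trend and no differences in cell make-up between libraries, so they do not give the error rate in these data. The members and lists were chosen with earlier results of these data known. All members may be named; values in every library are given at least for called members and the 3 most abundant, most negative and most positive. From the pathway list, called genes with the 3 largest changes in each direction are named, and from other lists the most abundant gene, the called gene with the largest change, Myc and Rn45s. Notch1, Mnt, Mxi1, Cad, Gltscr2 and Snord57 were chosen after their values were seen. Alternatives were a replicate block, each library left out, quantile normalization, trimmed mean scaling, no filter, a filter at a mean of 5 RPKM, a pseudocount of 0.1, no trend, voom on recovered reads, removal of the length trend (lowess, span 0.3) and an endothelial covariate.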

Additional observations from a re-analysis of the deposited data

How the results depend on the processing

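Of the 35 members, 23 had a negative log2 fold change under every alternative tried, 3 (Nhp2, Nop10 and Pes1) a positive one, and 9 took both signs; 5 members were called in at least 1 fit. With the deposited scale and all libraries, 1671 genes and 2 members were called. The count of genes was 771 with quantile normalization, 365 with no filter, where 22072 rows were tested, 796 with the length trend removed and 0 with the endothelial covariate (2014 at an unadjusted p under 0.05). Members called numbered 0 in each of these 4 fits (10, 12, 9 and 1 lower at an unadjusted p under 0.05) and 1 with a mean of at least 5 RPKM, where 32 members were tested and Rrp12 was not among them. Of all genes, 2112, 3105, 1897 and 889 were lower at that p in the same 4 fits. With 1 library left out, genes called ranged from 18 to 1655, members called from 0 to 4, and the median of the members from -0.48 to -0.21; fewer samples were then fitted. The median of the members was -0.092 with the endothelial covariate, and between -0.35 and -0.24 with the other alternatives that kept all libraries. Trimmed mean scaling, a pseudocount of 0.1, limma without the trend and voom on recovered reads each called 2 members. The causes of these shifts were not tested.

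Signs turned for few members. Npm1 was at -0.32 with quantile normalization. Npm3 was at 0.0057 with trimmed mean scaling, 0.0060 with voom and 0.18 with the covariate, and Wdr74 at 0.044, 0.047 and 0.068. With the covariate, Fbl was at 0.097, Dkc1 at 0.21 and Nop16 at 0.082. With 1 library left out, the range of log2 fold change crossed 0 for Npm1 (-0.074 to 0.16), Npm3 (-0.17 to 0.050), Fbl (-0.19 to 0.013), Nop58 (-0.15 to 0.16), Heatr1 (-0.0031 to 0.22), Wdr74 (-0.095 to 0.074) and Ebna1bp2 (-0.041 to 0.10).

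With the replicate number as a block, 536 genes and 1 member (Pprc1, limma adjusted p = 0.025) were called, and Rrp12 was not (limma adjusted p = 0.086, in a range from 0.043 to 0.35 over the alternatives). Deviations from the group means correlated at 0.12, -0.34 and -0.18 between libraries numbered 1, 2 and 3, and not every library correlated best with its own number, so the numbers were not taken as pairs; the study describes its mice as coming in pairs, but the sources used here do not say which mice belong together. Of the called genes named that are not members, Vwf, Cd93, Col3a1, Krt18, Hey1, Pdcd11, Dhx37, Fcf1, Mnt, Ldha and Mki67 were not called with the block, and of the further pathway factors 1 was called lower and 0 higher (28 and 2 at an unadjusted p under 0.05); of the ribosomal protein genes 0 were called by limma, with 3 higher at that p, and of the macrophage markers 2 were lower at it. With the block, 2191 of all 12320 genes were lower and 1440 higher at an unadjusted p under 0.05. Having 3 mice per group limited the precision.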
